A study of Drosophila melanogaster with 4 samples.

Results

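The peaks described here are the regions of chromosome arm 3R at which chromatin was recovered with GFP-tagged Eip74EF in Drosophila melanogaster embryos. All peaks that the authors placed on 3R were taken, and these made up 372 of the 1929 peaks in their list (19.3%). The choice used only the arm and no measured value. Embryos were 8 to 16 h old, of the strain Eip74EF-GFP with the genotype PBac{y[+]-attP-3B}VK00037, and carried the Eip74EF genomic coding region as a transgene. The labels' protocols name y; bw cn sp flies for the embryo collections, and fixation was in 1.8% formaldehyde for 15 min. All 4 libraries came from this strain and stage: 2 precipitations with the rabbit polyclonal antibody GFP ab290 and 2 input DNA samples. The labels do not say how strongly or in which cells the transgene is active, and embryos lacking the tag were not among the samples. Regions recovered by the antibody alone and regions occupied by tagged Eip74EF cannot be told apart.

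Eip74EF is one of the early genes of the ecdysone cascade, in which a pulse of the steroid hormone ecdysone, acting through its nuclear receptor, switches on a small set of transcription factors that then control later target genes. Its protein belongs to the ETS family, whose DNA-binding domain recognises a core GGAA. Arm 3R is the right arm of the third chromosome and carries, among many others, the Antennapedia and bithorax complexes of homeotic genes. Release 5 coordinates on this arm run from the centromere (low values) to the telomere (high values). The list names no genes and the annotation at hand follows another release, so the sites are given by position and no gene is assigned to any of them. No sequence of this release was used, and none is printed.

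Peaks on 3R were mostly narrow, unevenly spaced and of low score, with a small number of very high scores. They ran from 54887 to 27878516, a span of 27.8 Mb, at 13.4 peaks per Mb, and together covered 179 kb, or 0.643% of that span. The score is the authors' own value for each peak, on a scale that is not given in the sources used here. It is used only to rank and describe peaks. On 3R it ran from 6.02 to 293.85, with a median of 16.94 and quartiles of 11.5 and 32.4, and a 90th percentile of 75.6. The list gives 1 score per peak and no value for any library, so there is no error between replicates, depth is unknown, and no comparison below carries a test. Peaks in 1 list are not replicates of each other. The exact binomial intervals (95%, Clopper-Pearson) given with shares cover counting error only and treat neighbouring peaks as independent.

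Strong peaks were spread along most of the arm, and the 2 largest groups of them held 5 and 4. A peak was called strong when its score reached the 95th percentile of the whole list, 95.63, which 98 peaks did. Of these, 25 were on 3R (25.5%, interval 17.2 to 35.3%). The arm held 19.3% of all peaks, a value inside that interval. Strong peaks were 6.72% of the peaks on 3R and 4.78 to 7.94% of those on the other large arms. For 2L, a dense run of peaks at its base was left out. The lowest strong peak on 3R scored 102.83 and the highest of the other 347 scored 90.1. When strong peaks no more than 250 kb apart were put together, the 25 formed 15 groups, of which 10 were a single strong peak, and 14 of the 28 windows of 1 Mb held at least 1.

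The richest group held 5 strong peaks in 140 kb, from 2593974 to 2734294. At its centre 3 peaks lay side by side. The first, at 2644508 to 2645707, scored 102.83. The second followed after 235 bp, at 2645943 to 2646952, and scored 293.68, the second highest value on the arm. The third followed after 655 bp, at 2647608 to 2648563, and scored 246.13. This was the only run on 3R in which 3 strong peaks stood together. The group also held an upstream peak at 2593974 to 2594530 (115.5) and a downstream one at 2733734 to 2734294, which scored 177.52 although it was only 561 bp wide.

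A second group, of 4 strong peaks in 436 kb from 17010058 to 17445844, contained the highest score on the arm. That peak, at 17405176 to 17406743, scored 293.85, was the second highest of the whole list and was also the widest on 3R at 1568 bp. The strong peaks around it were those at 17010058 to 17010996 (117.09), 17233178 to 17234625 (147.35) and 17444986 to 17445844 (156.3). Within the same 436 kb, 9 further peaks did not reach the strong threshold, since 13 peaks in all lay there.

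Very high scores outside these groups came from single peaks and from peaks in runs. The peak at 18222837 to 18223509 scored 275.91, was the third highest on the arm and had no other peak within 39.6 kb. The peak at 8889581 to 8890450 scored 225.64, with its nearest neighbour 50.8 kb away, and a peak of 147.74 lay at 8537911 to 8538756, 73.9 kb from the next. At 15686921 to 15687541 a score of 191.22 followed a peak-free stretch of 539 kb and had a peak of 16.88 on its other side, 2588 bp away. Of the remaining peaks among the 15 highest, that at 11619344 to 11620421 (120.02) was single. Those at 57971 to 58924 (149.49), 12257227 to 12257899 (140) and 4016581 to 4017446 (122.8) were in runs of 2, and that at 1416954 to 1417573 (145.8) was in a run of 7.

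Strong peaks were found both alone and in company. Of the 25, 11 were single and 14 belonged to runs, which are peaks joined over gaps of at most 10 kb between their edges. The strong peak farthest from any other was that at 17233178, 171 kb from its neighbour. It was followed by those at 27045323 (106.3, 133 kb), 11798460 (114.3, 126 kb), 11619344 (115 kb) and 19606984 (119.28, 109 kb). Of the peaks that shared a run with a strong peak, the 20 that were not strong themselves had a median score of 12.3 and quartiles of 10.5 and 19.3. The peak 54 bp from the strong peak at 12257227, for example, scored 10.11 and was 255 bp wide. Leaving out strong peaks lowers this median by construction. Over all runs, the 125 peaks that were not the strongest of their run had a similar median, 12.57, and quartiles of 10.11 and 16.63.

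Strong peaks became fewer towards the telomere, as did peaks of any score. The part of the span nearer the centromere held 17 strong peaks among 231, and the other part 8 among 141. The longest stretch without a strong peak, picked after the scores were seen, ran from 19607598 to 27045322. It measured 7.44 Mb and held 68 peaks, where 6.72% of all 3R peaks were strong. The highest score there was 90.1. With the 90th percentile (67.172) as threshold, peaks there such as those of 90.1, 86.78 and 80.12 would count as strong. The median distance between neighbouring strong peaks on the arm was 618 kb.

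**Figure D1:**
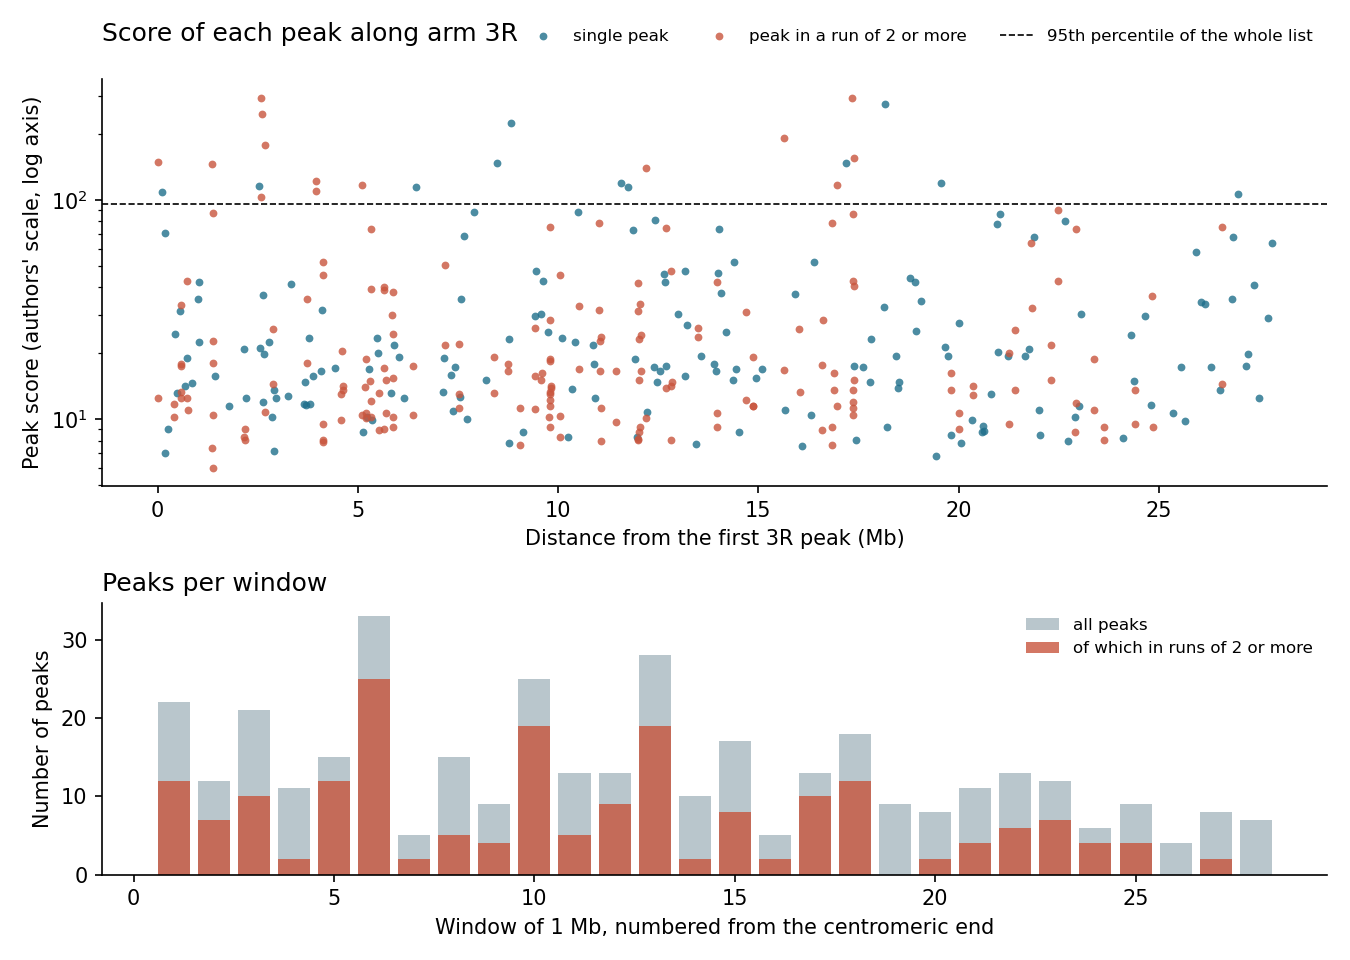
Upper panel: score of each of the 372 peaks (log axis) against its distance from the first 3R peak in Mb, with single peaks in blue, peaks in runs in red and the 95th percentile of the whole list (95.63) as a dashed line. Lower panel: number of peaks in each window of 1 Mb (grey) and how many of them were in runs (red). Points above the line gather near 2.6 and 17.4 Mb, only 1 lies above it in the last 7 windows, and the 3 tallest bars are windows 6, 10 and 13.

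Peaks became sparser from the centromeric to the telomeric end, while their typical score stayed much the same. With the span cut into 4 equal stretches, the stretches held 119, 112, 82 and 59 peaks, or 17.1, 16.1, 11.8 and 8.48 per Mb. The median distance between neighbours widened from 16.0 kb in the first stretch to 20.2, 40.1 and 95.5 kb. Strong peaks numbered 12, 5, 7 and 1, and runs of 3 or more peaks 12, 7, 6 and 1. When each run was counted once, together with the single peaks, the counts were 72, 70, 58 and 47, a shallower decline than that of the peaks. Joining takes more peaks out of the count where they lie closer, which favours a shallower decline by construction. The share of peaks in runs was 58.8% in the first stretch (interval 49.4 to 67.8%) and 39.0% in the last (26.5 to 52.6%), so these intervals overlapped.

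Score and width showed little relation to position. The median score in the 4 stretches was 15.42, 17.4, 16.23 and 19.48, and the median width was 396, 391.5, 381 and 387 bp. Over the 372 peaks, Spearman's rho with position was 0.03 for score and -0.0026 for width. Windows of 1 Mb varied more than the stretches did. The lowest median score of a window was 9.97, over 11 peaks between 20 and 21 Mb, where no score passed 27.59. The highest was 33.9, over 8 peaks between 26 and 27 Mb.

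The 28 windows of 1 Mb held from 4 to 33 peaks, with a median of 12. The 3 fullest were those from 5 to 6 Mb (33 peaks), 12 to 13 Mb (28) and 9 to 10 Mb (25), which together held 86 peaks, 23.1% of those on the arm. In these windows 63 of the 86 peaks (73.3%) were in runs and 2 were strong, where 52.2% of all 3R peaks were in runs and 6.72% were strong. Windows chosen for holding many peaks have more of them within 10 kb by construction. The window from 5 to 6 Mb had 25 of its 33 peaks in runs, among them a run of 5 peaks from 5358882 to 5385588 with a highest score of 73.52. It also held runs of 4 at 5243770 to 5260305 and 5698234 to 5707702, and its only strong peak (5154146 to 5155065, score 116.71) lay near its start. The emptiest windows were 25 to 26 Mb with 4 peaks, and 6 to 7 Mb and 15 to 16 Mb with 5 each. Although nearly empty, the window from 6 to 7 Mb held a peak of 115.19 and that from 15 to 16 Mb the peak of 191.22. Over the 28 windows, the number of peaks and the median score had a Spearman's rho of -0.12, given as a description.

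Gaps between neighbouring peaks covered a very wide range, from 53 bp to 675 kb. The median of the 371 gaps was 27.6 kb and the quartiles were 4.42 and 110 kb. Of the gaps, 46 (12.4%) were at most 500 bp, 125 (33.7%) at most 10 kb, and 101 exceeded 100 kb. Those 101 made up 21.5 Mb, or 77.4% of the span. Of these, 28 exceeded 250 kb and made up 9.77 Mb (35.1%).

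The longest peak-free stretch, 675 kb, ran from 6503834 to 7179246 and began directly after the strong peak of 115.19. The second, 539 kb from 15147971 to 15686920, ended at the strong peak of 191.22, and the fifth, 465 kb from 4689496 to 5154145, ended at that of 116.71. The third and the fourth lay in the distal part of the arm, 517 kb from 24900108 to 25417590 and 469 kb from 23692792 to 24161977. Weak peaks, of 8.02 to 10.72, bordered both. The sixth, 384 kb from 11118063 to 11502445, lay between peaks of 7.99 and 9.73. Among these 6 gaps, 3 had a strong peak at 1 end and 3 had none. The next longest gaps, of 377, 375, 359 and 353 kb, had no strong peak at either end, so this count depends on where the list of gaps is cut.

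**Figure D2:**
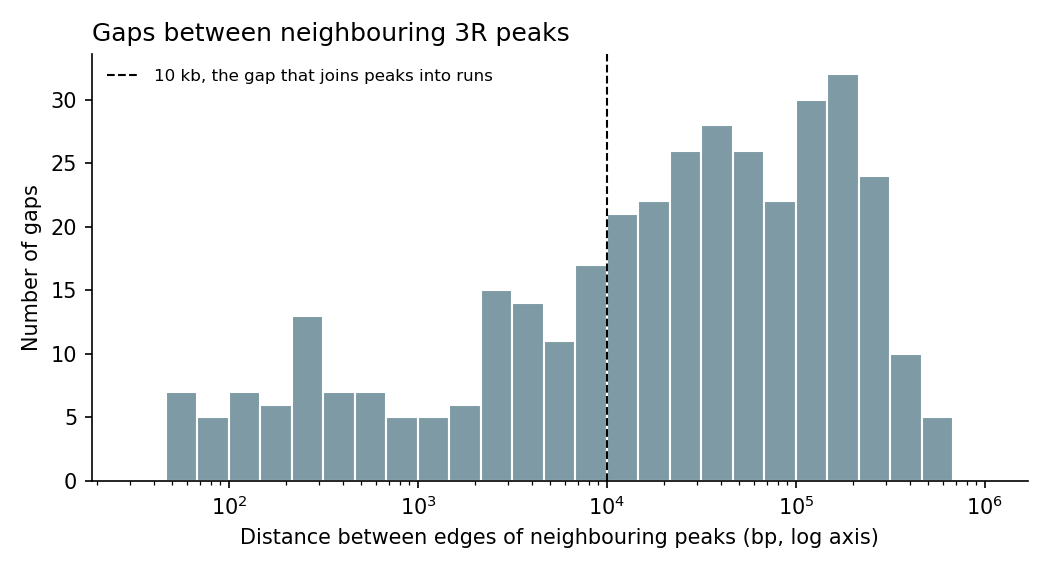
Number of gaps (vertical axis) by the distance between the edges of neighbouring 3R peaks in bp (log axis), with a dashed line at the 10 kb that joins peaks into runs. The 371 gaps spread from 53 bp to 675 kb with a median of 27.6 kb, the tallest bars lie between 100 and 250 kb, and the bars on both sides of the 10 kb line are of similar height.

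Joining neighbours over gaps of at most 10 kb placed 194 of the 372 peaks in runs (52.2%, interval 46.9 to 57.3%) and left 178 single. There were 69 runs: 43 of 2 peaks, 15 of 3, 3 of 4, 4 of 5, 3 of 7 and 1 of 10. The widest gap that joined peaks was 9971 bp and the narrowest that did not was 10144 bp. Runs measured from 0.59 to 26.7 kb with a median of 4.04 kb, and together they took up 434 kb, 1.56% of the span. When weaker peaks were left out, so that only scores from the list's median of 17.87 upwards remained (the stricter list), the share in runs was 23.5%. Leaving out peaks of any score widens the gaps between those that remain, which by itself tends to lower this share.

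The runs of 6 or more peaks were of different make-up. The run from 17405176 to 17417930 opened with the highest score on the arm. Its scores in order from the centromeric side were 293.85, 12.06, 10.47, 42.83, 13.68, 86.79 and 11.24. The peaks of 293.85, 42.83 and 86.79 were over 1 kb wide (1568, 1132 and 1330 bp), and the others were 201 to 658 bp wide. With 5744 bp under peaks in 12.8 kb, this run was 45.0% covered, against 13.7 to 20.0% in the other runs of this size.

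The run from 1416954 to 1438004 also opened with its strongest peak. Its 7 scores were 145.8, 7.43, 10.47, 22.68, 87.8, 18.16 and 6.02, the last being the lowest score on the arm. The run of 10 peaks, from 9837698 to 9862099, had its strongest peak near the telomeric side: 8 peaks of 9.25 to 18.79 came first, then a peak of 75.69 that was 1310 bp wide, then one of 28.35. The run of 7 from 12047264 to 12068538 had no score above 41.82, and its scores were 31.25, 41.82, 8.09, 8.16, 8.77, 15.12 and 23.22. In each of these 4 runs at least 3 peaks scored under 14, beside stronger ones.

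**Figure D3:**
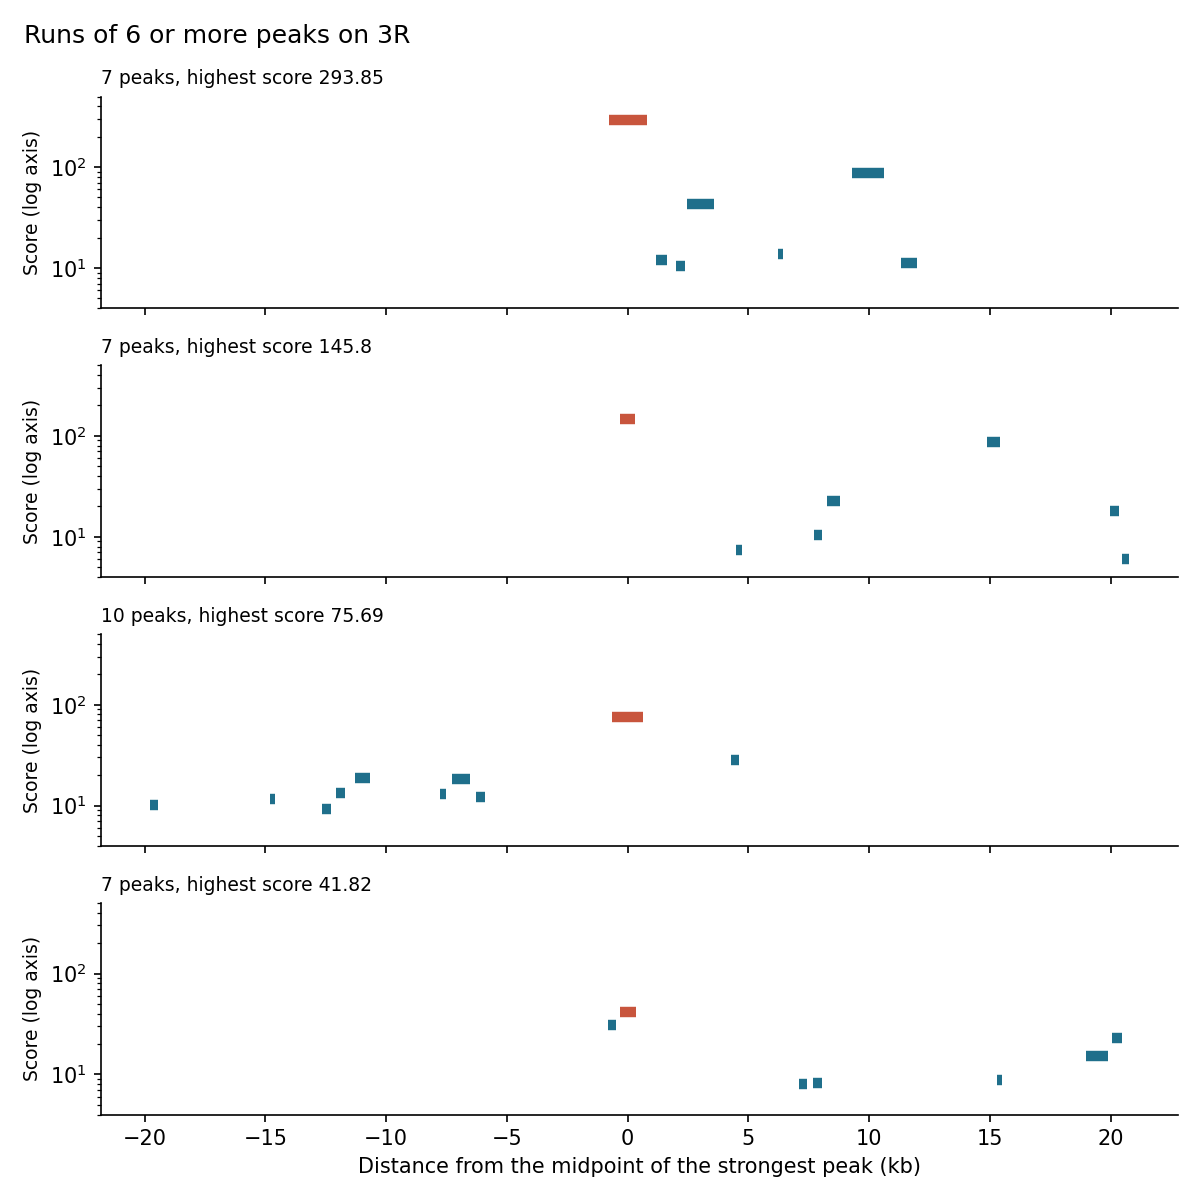
The 4 runs of 6 or more peaks, each bar spanning a peak from start to end at the height of its score (log axis), against the distance in kb from the midpoint of the run's strongest peak (red). In the 2 upper runs (highest scores 293.85 and 145.8) the strongest peak is the first, in the run of 10 it is the ninth, and in the lowest panel it is the second.

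Scores within runs ranged widely. The strongest peaks of the 69 runs had a median score of 30.9 and a median width of 620 bp, and the other 125 run peaks had 12.57 and 335 bp. Sorting each run by score sets these values apart by construction, so they are a description. Over all 194 run peaks, 66 (34.0%) were at or under 12.3, the lower quartile of the whole list, beside 42 of the 178 single peaks (23.6%) and 108 of all 372 (29.0%). The highest score of a run had a median of 25.7 in runs of 2, 37.95 in runs of 3 and 47.6 in runs of 4 or more, which also grows by construction with the number of peaks. In 55 of the 69 runs the strongest peak was also the widest.

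Over all run peaks, the median score was lower than that of single peaks. The median was 15.12 for the 194 run peaks and 18.96 for the 178 single ones, a difference of -3.84, and the quartiles were 10.8 and 30.7 against 12.6 and 34.6. Runs of 2, of 3 and of 4 or more had medians of 16.23, 13.12 and 14.86. In the stricter list the direction turned, and the difference was 7.135 in favour of run peaks. Median widths were 384.5 bp in runs and 398.5 bp for single peaks.

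The strongest peak of a run was found at either end and in between. In the 26 runs of 3 or more peaks it was the first peak from the centromeric side in 7, the last in 8 and an inner one in 11 (42.3%, interval 23.4 to 63.1%). Inner peaks made up 51.9% of the 108 peaks in these runs. Longer runs weigh more in that share, whereas the 42.3% counts each run once, so these are not like measures. The median score was 13.5 for the 56 inner peaks and 15.0 for the 52 at the ends. In the 43 runs of 2, the peak on the centromeric side was the stronger in 27 and the other in 16. The scores of the other peaks showed little relation to their distance from the strongest one. Their median was 13.62 within 500 bp (25 peaks), 10.9 from 500 bp to 2 kb (24), 11.5 from 2 to 5 kb (23), 13.12 from 5 to 10 kb (36) and 11.5 beyond (17). Over the 125 peaks, Spearman's rho was -0.03 with that distance and 0.24 with the score of the strongest peak.

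Very close pairs were common, and their stronger members scored lower at the median than those of pairs farther apart. The 46 gaps of at most 500 bp involved 85 peaks and had a median of 202 bp, and 12 of them were at most 100 bp. The median score was 18.65 for the stronger and 11.96 for the weaker member. In the classes of wider gaps given below, the medians were 24.59 to 36.42 for the stronger and 10.9 to 13.2 for the weaker. In 34 pairs neither member was in the highest class of the list (above 33.04), and only the pair at 2644508 and 2645943 had both members there. The wider member was the stronger in 36 of the 46 pairs. A pair measured 1115 bp at the median from outer edge to outer edge, and 2445 bp at most. Scores of neighbours resembled each other little at any distance. Spearman's rho between them was 0.28 over these 46 pairs, 0.07 over 22 pairs 500 bp to 2 kb apart, 0.02 over 30 pairs 2 to 5 kb apart and 0.01 over 27 pairs 5 to 10 kb apart. It was 0.13 over 101 pairs 10 to 50 kb apart and 0.07 over 145 pairs farther apart. Whether such pairs are separate sites or 1 site divided in peak calling was not tested. With peaks within 1 kb merged, the share in runs was 35.9%.

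Width on 3R ran from 201 to 1568 bp, with a median of 388 bp and quartiles of 291 and 592 bp, and 350 peaks (94.1%) were under 1 kb. At the lower end, 6 peaks measured exactly 201 bp, and none was narrower. Wider peaks had higher scores, with a Spearman's rho of 0.72 over the 372 peaks, 0.74 in runs and 0.70 among single peaks. Both values come from the same peak calling and are not independent. In the stricter list rho was 0.42.

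The narrowest peaks all had low scores, whereas the scores of wide peaks covered a broad range. The 61 peaks of up to 250 bp had a median score of 10.22 and none passed 26.84. The 97 of 250 to 350 bp had a median of 13.61 and reached 45.99, and the 86 of 350 to 500 bp had a median of 17.7 and reached 88.04. No strong peak was narrower than 557 bp. The 65 peaks of 500 to 700 bp nevertheless ranged from 10.72 to 275.91. The 22 of 1 kb or more ranged from 22.17 to 293.85, and 5 of them were strong. That was a higher share than the 6.72% over all peaks on the arm.

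The widest peaks show the same spread. After the peak of 1568 bp came one of 1469 bp at 14123582 to 14125050, which scored 37.61, and one of 1448 bp at 17233178 that scored 147.35. Those of 1330 bp (17415239 to 17416568), 1314 bp (27433609 to 27434922) and 1310 bp (9856821 to 9858130) scored 86.79, 40.93 and 75.69. The peaks of 1309 bp (17441747 to 17443055) and 1284 bp (10549085 to 10550368) scored 40.61 and 88.62. Of these 8, 2 were strong, and 4 lay in the group between 17010058 and 17445844.

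**Figure D4:**
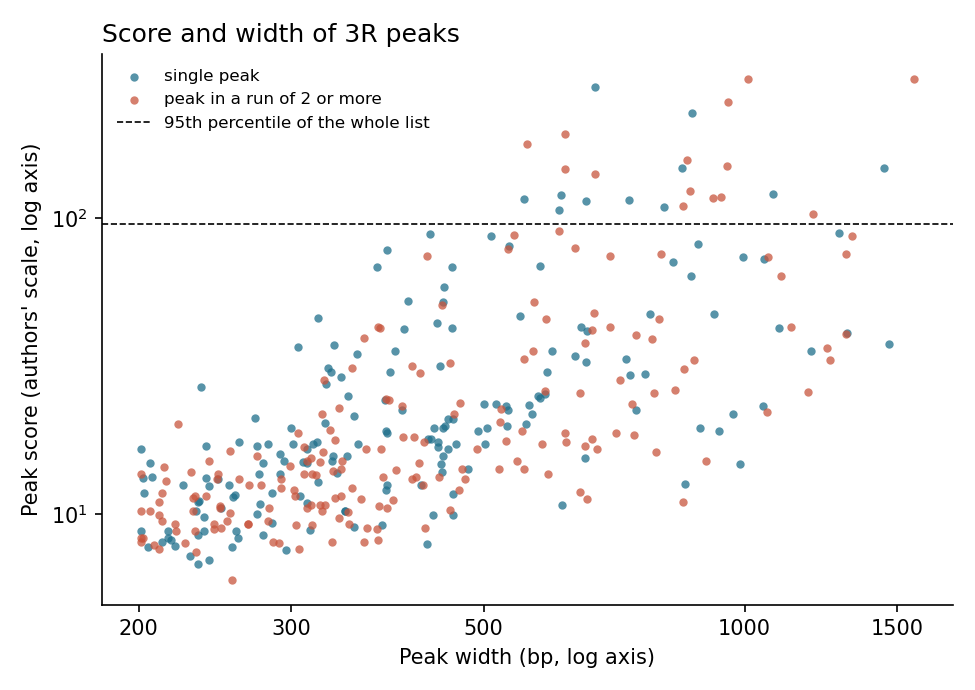
Score (log axis) against width in bp (log axis) for the 372 peaks on 3R, single peaks in blue and peaks in runs in red, with the 95th percentile of the whole list (95.63) as a dashed line. All 25 points above the line lie at 557 bp or wider, while points wider than 1 kb stretch from 22.17 to 293.85. Blue and red points overlap throughout.

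Several of these measures are given here for the other large arms; no difference between arms was tested. The median score was 16.94 on 3R, 16.63 on 2L without the dense run of 84 peaks at its base, 16.94 on 2R, 17.4 on 3L and 21.66 on X. Run peaks minus single peaks gave -3.84 in median score on 3R and -6.745, -2.6, -2.45 and 1.77 on those arms in the same order, so X had the opposite sign. Spearman's rho of score with the coordinate was 0.03 on 3R, 0.05 on 2L without the dense run, -0.05 on 2R, -0.07 on 3L and 0.20 on X. Coordinates rise towards the telomere on 3R and 2R but towards the centromere on 2L, 3L and X. On X the median score was 29.11 in the part of the span nearer the centromere and 17.25 in the other. Strong peaks were 6.72% of 3R peaks (interval 4.40 to 9.76%), 7.12% on 2L without the dense run, 5.45% on 2R, 4.78% on 3L and 7.94% on X, and all of these intervals overlapped that of 3R. The share of peaks in runs was 52.2% on 3R, 56.6% on 2L without that run, 48.7% on 2R, 51.8% on 3L and 43.9% on X. The median width of 388 bp compares with 389, 397.5, 390.5 and 483 bp on the same arms in that order. The widest 3R peak, at 1568 bp, was narrower than the widest of the other arms, which measured 2054 to 3282 bp. The share of gaps of at most 500 bp was 12.4% on 3R and 6.57 to 9.96% elsewhere. The part of the span nearer the centromere, up to its midpoint, held 231 of the 372 peaks on 3R (62.1%), against 56.7% on 2R, 52.9% on 3L, 51.9% on X and 45.9% on 2L without the dense run. That part held 17 of the 25 strong peaks on 3R, 10 of 17 on 2R, 8 of 13 on 3L, 12 of 17 on X and 5 of 20 on 2L without the dense run. The dense run lies at the base of 2L, on the centromeric side. Leaving it out therefore lowers the 45.9% of 2L peaks nearer the centromere by construction.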

How the data were processed

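The authors deposited 1 list of peaks for the series, with a position and a score for each peak. Per the file headers, positions follow FlyBase release 5 and the source column names MACS. The tools named are BWA, MACS2 and CASAVA in versions 1.7.0.2 and 1.7.0.3, and the build is BDGP5, per the submitters' processing notes. The sources used here do not give the calling threshold, the scale of the deposited score, any filter or any pooling of the 2 precipitations. Sites under that threshold are missing from the list, and a site divided in peak calling counts as several peaks.

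From this list the 3R peaks were taken and described with Python 3.11.15, pandas 2.3.3, numpy 2.4.6 and scipy 1.17.1. The midpoint is the mean of start and end, and gaps run from edge to edge. The code was tested on simulated data. Positions named are the 15 highest scores, the 8 widest peaks, runs of 6 or more peaks, the 6 longest gaps, the 3 fullest and 3 emptiest windows of 1 Mb and the 5 most isolated strong peaks. The smaller runs in the fullest window, the outermost peaks of the groups of strong peaks and the examples beside strong peaks were named after their values were seen, as were the classes of distance and width. The members and lists were chosen with earlier results of these data known. Alternatives were other joining gaps, windows and percentiles, a stricter list and merged peaks. The gene table at hand follows release 6 and was not used to assign genes.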

Additional observations from a re-analysis of the deposited data

How the results depend on the processing

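Over 9 results and 28 alternatives, 17 values stayed within 1.5 times the reported one or, for shares, within its binomial interval, and 11 did not. The share of peaks in runs was 44.1% with peaks joined over 5 kb, 65.3% over 20 kb, 23.5% in the stricter list and 35.9% with peaks within 1 kb merged. Fewer peaks remained in the stricter list, which by itself tends to lower the share. Spearman's rho of score with position was 0.0041, and that of width with position -0.049, when only the strongest peak of each run was counted. For width it was -0.084 in the stricter list. All of these rho values are near 0. The rho of score with width was 0.42 in the stricter list, which holds a narrower range of scores by construction. The median score of run peaks minus that of single peaks was 7.135 in the stricter list and -1.485 with peaks merged, and the cause was not tested. It was 11.96 with only the strongest peak of each run, which is positive by construction since maxima are set against unselected single peaks. The number of long gaps, the ratio of the fullest to the median window, the place of the strongest peak and the share of the list's strong peaks on 3R stayed within those limits in their alternatives. No paired analysis was possible because scores are not given per library. Leaving out a replicate was likewise not possible, and depth is unknown.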
